A study of Mus musculus with 20 samples.

Results

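Lrig1 is the gene whose promoter marks the cells of this study, and its surroundings were examined as 1 locus in 10 lists of accessible chromatin. The locus was taken as the mm10 span of Lrig1, chr6:94604529-94700298, on the minus strand, and 50 kb beyond each end (chr6:94554529-94750298). A deposited peak belonged to it when its summit lay in this window. The 10 lists placed 256 peaks there, 14 to 33 per list. Overlapping peaks were merged within and then between lists into 28 elements, out of 101406 elements on chromosomes 1 to 19, X and Y.

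Lrig1 is a transmembrane protein with leucine-rich repeats and immunoglobulin-like domains that lowers signalling by Egfr and other receptor tyrosine kinases, in part by promoting their degradation. In skin it is known as a marker of stem cells of the upper hair follicle, and its loss in mice is known to cause epidermal overgrowth. ATAC-seq reads open DNA through the insertions of the Tn5 transposase, so an element is a stretch of DNA, such as a promoter or an enhancer, that was accessible in enough of the sorted cells to give a peak.

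All cells came from tail epidermis of Lrig1CreER/Rosa-TdTomato mice, in which a tamoxifen-dependent Cre under the control of Lrig1 switches on a red fluorescent reporter. The sorted population is labelled Lrig1 GL Sca1+; the sort for Sca1, the product of Ly6a, was made to enrich cells of the upper follicle. Because the Cre allele sits at Lrig1, every group carries the same alteration of the gene studied here, and no group has an unmodified Lrig1. The 10 groups of 2 libraries were homeostasis (0 weeks, no wound named), 1 week and 8 weeks after a first wound, 1 week after a second wound, vehicle at 0 weeks, PRT4165 at 0 weeks, UVB, wounding combined with UVB, and cultured cells from a control (non-memory) region and from a distal memory region, both labelled 8 weeks after a first wound. PRT4165 is a small molecule that blocks PRC1, a Polycomb complex that ubiquitinates histone H2A. The 8 groups that were not cultured are called fresh below. Age, sex and the number of animals are not in the labels.

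Each group has 1 deposited list made from both of its libraries. There is therefore no spread between replicates and no test for any value below, and a difference between 2 lists is a difference between those lists only. Merged regions numbered from 34644 (8 weeks) to 73340 (UVB) per list, and read depth is unknown. The lists differ in length, so counts of elements are given beside the same share over all regions of the list. The authors' signal value was ordered or divided within a list. Where values of several lists stand side by side, a shared scale is not known. The median signal value of a list ran from 8.96 (1 week after the first wound) to 11 (wound with UVB). A region was found at most 1 kb from an end of 4 to 7 of 7 keratinocyte markers and of 4 to 6 of 6 upper-follicle markers, with Krt5, Krt14, Itga6, Itgb4, Ly6a, Plet1, Sox9 and Lrig1 so marked in all 10 lists, Lgr6 in 8, Krt15 in 7, Krt79 in 6, Col17a1 in 5 and Trp63, the regulator of the epidermal fate, in 1 (vehicle). Only the ends of each gene span were searched, so an open start inside a span, in Trp63 or another gene, would be missed. The other lists of markers reached 3 of 3 for sebaceous genes in every list, 1 to 3 of 3 for the bulge, 1 to 2 of 5 for melanocytes, 0 to 1 of 4 each for T cells, for Langerhans cells and macrophages and for endothelium, 1 to 3 of 5 for fibroblasts, and 0 to 2 of 3 for Merkel cells. Tyr, Tyrp1, Sox10, Cd3e, Cd3g, Cd2, Cd207, Ptprc, Adgre1, Pecam1, Cdh5, Tie1, Col1a2, Col3a1 and Krt20 had no such region in any list. Their list mates Pmel (melanocyte) and Col1a1 (fibroblast) had one in all 10 lists, Dct in the 8 fresh ones, Sox2 in 7, Dcn in 5, Cd247 and Atoh1 in 4, Pdgfra in 1, and Csf1r and Kdr in the 2 cultured ones. The share of all genes with a region so near an end is not given here. The marker counts therefore have no background and do not by themselves identify a cell type.

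The start of Lrig1 was open in every list, and its promoter is shown because the 10 start summits fell close together inside it. The sequence is from RefSeq for GRCm38.p6, the assembly of mm10, chr6:94700096-94700395, minus strand, from 250 bases before to 50 bases after the start at position 94700145. Capitals mark the 38 bases that hold the highest start summit of all 10 lists.
Lrig1 promoter: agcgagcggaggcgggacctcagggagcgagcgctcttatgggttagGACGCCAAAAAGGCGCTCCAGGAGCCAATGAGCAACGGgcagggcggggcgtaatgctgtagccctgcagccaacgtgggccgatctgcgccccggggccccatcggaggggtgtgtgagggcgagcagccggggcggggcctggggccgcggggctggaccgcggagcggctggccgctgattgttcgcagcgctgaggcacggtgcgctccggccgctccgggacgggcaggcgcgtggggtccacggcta

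These 300 bases were 73% G and C, more than 94.3% of the 32851 promoters of the same table (median 52.7%), and held 35 CpG dinucleotides against a median of 7. The start summits lay 176 to 203 bp upstream of the annotated start in the fresh lists and 166 and 173 bp upstream in the cultured control and distal lists. That start, at 94700145, lies inside the gene span, which reaches upstream to 94700298. The summits, at 94700311 to 94700348, lay just beyond this end of the span. All distances are counted from 94700145, so a site called upstream can still lie inside the span. Of 10 motifs searched on both strands, the CCAAT box (CCAAT) had 1 match, 179 to 175 bp upstream and inside the capitals; 37.4% of all promoters hold a match. The GC box (GGGCGG) had 2 matches, from 162 to 157 bp and from 71 to 66 bp upstream, both outside the capitals (35.7% of promoters). A loose pattern of paired CNNG cores, searched for p63 and p53 but not the same as their binding site, had 4 matches outside the capitals, and 71.8% of promoters hold it. AP-1 (TGANTCA), CRE (TGACGTCA), E-box (CACGTG), NRF1, TATA box (TATAAA), ETS (CCGGAAG) and TEAD (GGAATG) had 0 matches in this window, against 7.81, 1.79, 7.15, 0.971, 13.6, 8.86 and 14.7% of promoters.

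Lrig1 stood in a stretch rich in elements. Its window held 11 elements in homeostasis, 14 and 7 at 1 and 8 weeks of the first wound, and 12 in the second-wound list. Vehicle held 18, PRT4165 15, UVB 17 and wound with UVB 14, while cultured cells had 18 (control) and 13 (distal). Among 21887 protein-coding genes, each with its span and 50 kb, 82.6% (8 weeks) to 98.9% (cultured control) had fewer elements in the same list, where the median gene had 3 to 6. Per 100 kb of window, 67.9 to 92.4% of genes had a lower density, with the same 2 lists at the ends. The map of elements by distance shows where they lay.

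**Figure D1:**
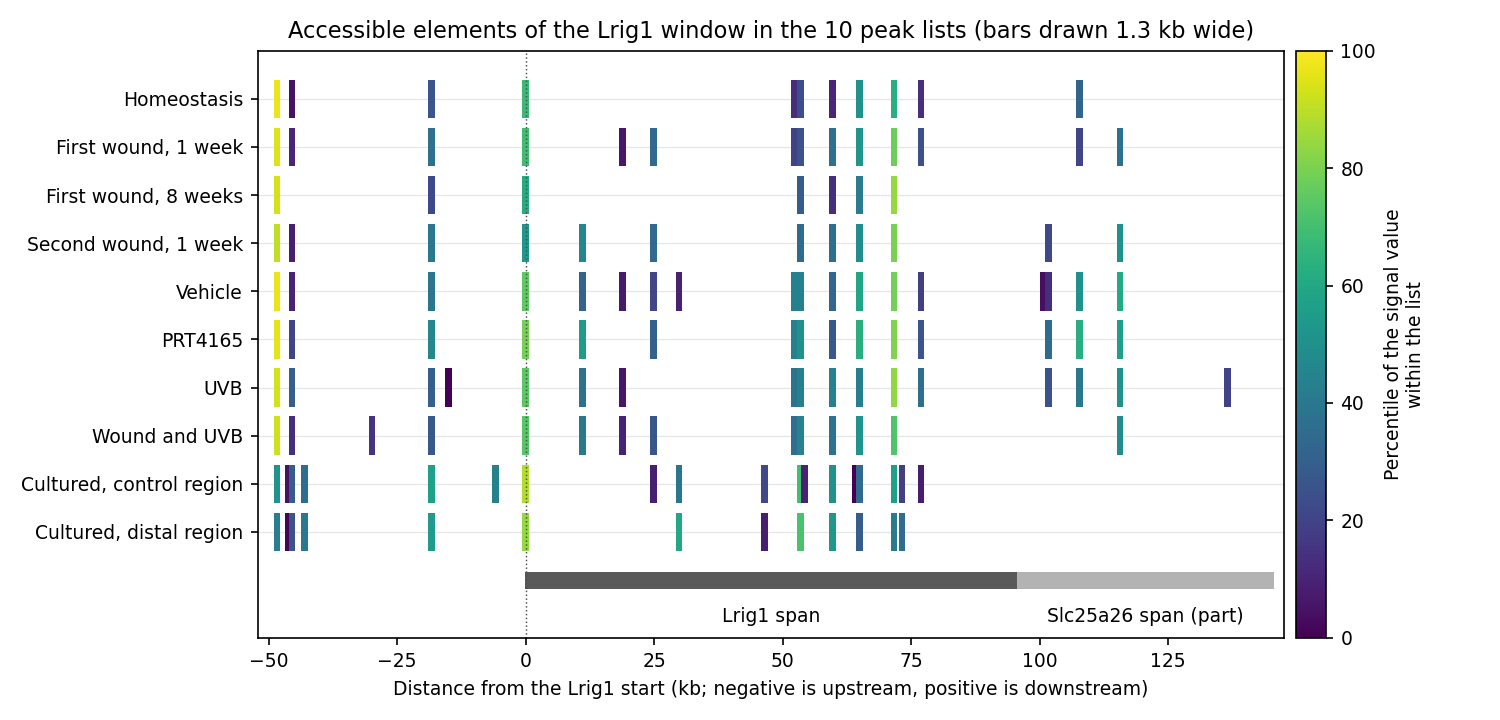
Elements of the Lrig1 window by distance from the annotated start of Lrig1 (horizontal axis, kb; negative is upstream) in each of the 10 lists (vertical axis), coloured by the percentile of the element's signal value within its own list; grey bars are the gene spans. The 7 columns filled from top to bottom are the elements of all 10 lists, and the 8-week list shows no others.

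Of the 28 elements, 1 held the start, 8 lay upstream, 14 within the span of Lrig1 and 5 within the span of Slc25a26, the mitochondrial S-adenosylmethionine carrier gene that adjoins the 3′ end of Lrig1. The gene table gives spans only, so exons, introns and UTRs were not separated. No element touched the microRNA gene Mir7041 inside the span or the pseudogene Gm6638 upstream. The nearest protein-coding gene upstream, Kbtbd8, begins 418 kb from the Lrig1 start, so the 8 upstream elements lay in a long interval without protein-coding genes.

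A core of 7 elements was present in all 10 lists, which is 25% of the window against 18.8% of all elements. It consisted of the start element (chr6:94699643-94700568), elements 48.3 kb (chr6:94748183-94748799) and 18.3 kb (chr6:94717505-94719401) upstream, and 4 elements inside the gene, 53.5 kb (chr6:94646070-94647203), 59.7 kb (chr6:94640128-94640849), 65 kb (chr6:94634462-94635891) and 71.7 kb (chr6:94627814-94629157) downstream of the start. None of the 5 elements in the span of Slc25a26 belonged to this core. With every list limited to its strongest 34644 regions, the length of the shortest list, 3 elements remained in all 10: the start element and those 48.3 kb upstream and 71.7 kb downstream.

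The strongest element of the locus in fresh cells was not the promoter but the element 48.3 kb upstream. Its signal value was 18.3 in the homeostasis list, 17.2 and 16.6 in the 1-week and 8-week lists of the first wound, and 15.9 in that of the second. The vehicle list gave 21.3, the PRT4165 list 20.9, the UVB list 19.9 and the list of wound plus UVB 21.1. It was the highest of the window in all 8 fresh lists, by signal value and by −log10 p alike. In the cultured lists it was 9.25 (control) and 8.69 (distal), with 4 of the other 6 core elements above it in both. Its single summit stayed within 94748501 to 94748532 over the 10 lists, so the same spot was measured throughout.

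The start element moved the other way in order. The homeostasis list had it at 10.9, the 1-week and 8-week lists of the first wound at 11.2 and 10.5, and the second-wound list at 9.72. It was 12.9 in the vehicle list, 14.3 for PRT4165, 13.9 for UVB and 15.1 for wound plus UVB. At least 1 core element stood above it in every fresh list. In cultured cells it was 16.6 (control) and 15.2 (distal), the highest of the window in both.

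Divided by the start element of the same list, the upstream element at 48.3 kb ranged from 1.40 to 1.68 in the fresh lists (median 1.56) and was 0.56 and 0.57 in the cultured control and distal lists. Fresh and cultured lists did not overlap. The element 71.7 kb downstream, ranked 2 or 3 of the core in fresh cells, had a ratio of 0.95 to 1.37 (median 1.09) in fresh lists and 0.60 and 0.57 in cultured ones, also without overlap. A ratio of 0.64 to 0.96 (median 0.80) in fresh lists against 0.45 and 0.49 was found 65 kb downstream. The 3 others overlapped: 0.53 to 0.87 against 0.60 and 0.66 at 18.3 kb upstream, 0.61 to 0.83 against 0.72 and 0.83 at 53.5 kb downstream, and 0.50 to 0.84 against 0.55 and 0.65 at 59.7 kb downstream. The divisor, the start element, itself stood higher in cultured lists (places below), which lowers every cultured ratio. By place, the element 65 kb downstream did not separate (12.8 to 31.2 in fresh lists, 11.8 and 13.8 in cultured ones). The 3 that overlapped in ratio lay by place above all fresh lists.

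**Figure D2:**
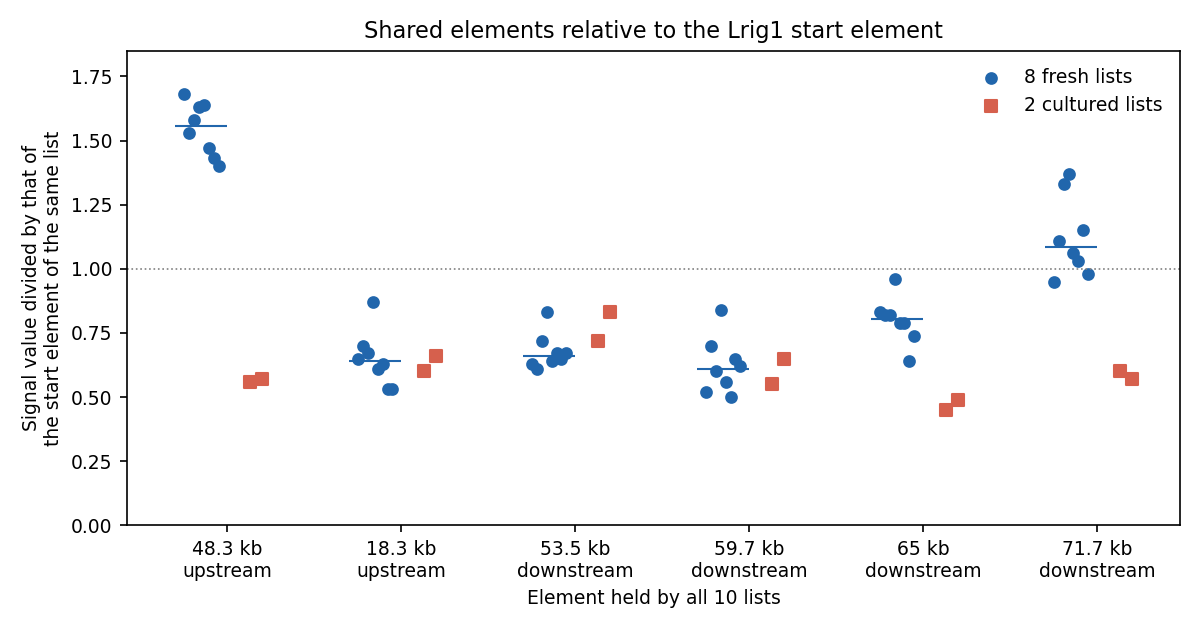
Signal value of each other core element divided by that of the start element of the same list (vertical axis), by element (horizontal axis). Blue circles are the 8 fresh lists with a line at their median, and red squares the 2 cultured lists. The element 48.3 kb upstream lies at 1.40 or more in fresh and 0.57 or less in cultured lists. Those 65 and 71.7 kb downstream also separate in this ratio, whose divisor stood higher in cultured lists.

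To set these differences beside the rest of the genome without the effect of list length, each element was placed among the same 19075 elements held by all 10 lists, where 100 is the strongest. The element 48.3 kb upstream stood at 80.6 to 95.1 in fresh lists (median 88) and at 24.7 (control) and 23.2 (distal) in cultured cells. Its lowest fresh place exceeded its highest cultured place by 55.9 points, and 35 of the 19075 elements (0.183%) had a gap as large in this direction. The start element went from 32.2 to 52.6 (median 46) to 79.1 and 74.6, and the element 53.5 kb downstream from 8.93 to 18.6 (median 15.4) to 46.9 and 55.9. In all, both cultured places lay below all fresh ones for 2 core elements (48.3 kb upstream and 71.7 kb downstream) and above them for 4 (start, 18.3 kb upstream, 53.5 and 59.7 kb downstream). Over the 19075 elements, 18.4% lay below and 20.3% above, so a change of place in culture was common. The gap at 48.3 kb upstream was reached by few of the 19075. Only an element with a lowest fresh place above 55.9 can have such a gap. The element stood high in every fresh list, and the share of 0.183% was not matched for fresh place. The cultured lists had regions at 5 (control) and 4 (distal) of the 6 upper-follicle markers and at 5 of the 7 keratinocyte markers each, within the range of the fresh lists. They had regions at 1 of 5 melanocyte markers (fresh 2, with Dct), 1 of 4 of Langerhans cells and macrophages (Csf1r; fresh 0) and 1 of 4 of endothelium (Kdr; fresh 0). The part of cell makeup in these values was not tested. Fewer cells with an open element and less opening per cell cannot be told apart in pooled nuclei.

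The wider elements held several summits, each with its own signal value. These values are not adjusted between lists. Over the 19075 elements of all 10 lists, both cultured signal values, each of the highest summit, lay below all fresh ones for 16.9%. They lay above all fresh ones for 11.6%. Between 17.50 and 19.04 kb upstream, the element had 4 to 6 summits per list. The summit at 17.77 kb had a signal value of 6.88 to 9.01 (median 7.84) in the 8 fresh lists and of 3.72 and 3.89 in the cultured control and distal lists. At 18.20 kb the fresh values were 5.39 to 7.74 (median 7.19), and the cultured ones 7.65 and 10.1. The summit at 18.64 kb was 5.64 to 7.96 (median 7.43) in 7 fresh lists and 9.91 and 6.82 in the cultured ones. It was the highest of the element in homeostasis, UVB and cultured control, so the place of the highest summit did not separate fresh from cultured lists here. Inside the gene, the element 65 kb downstream had its highest summit at 64.62 kb in all 8 fresh lists (8.61 to 11.2, median 9.25) and at 65.28 kb in both cultured lists (7.43 and 7.48), which had 7.24 and 6.12 at 64.62 kb. The 2 summits were thus nearly equal in the cultured control list, and 7 fresh lists also held the one at 65.28 kb (4.03 to 6.14, median 5.46). The highest summits of fresh and cultured lists were at least 650 bp apart. Over the 19075 elements, 3.45% had the highest summit of both cultured lists over 100 bp from that of every fresh list. This share was not matched for width or number of summits. The element 65 kb downstream was 1430 bp wide, with up to 5 summits in a list.

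**Figure D3:**
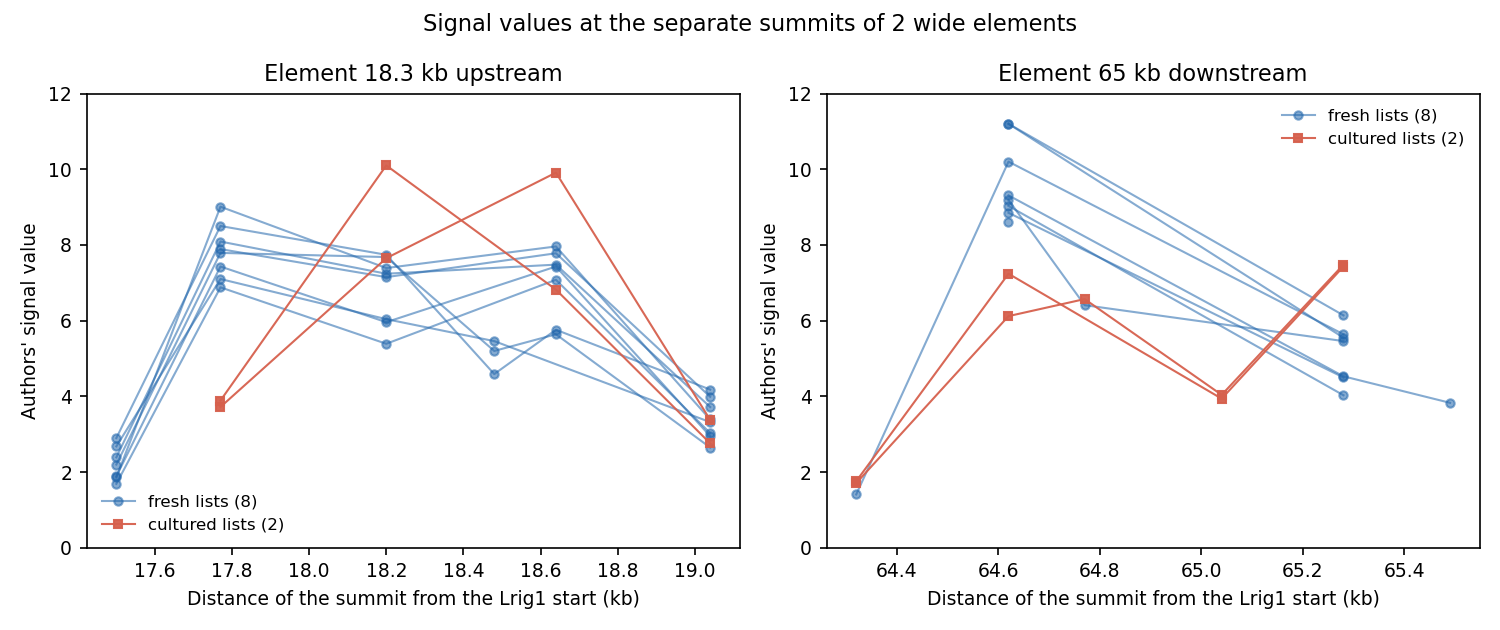
Signal value (vertical axis) of the separate summits inside the elements 18.3 kb upstream and 65 kb downstream, by distance from the Lrig1 start (horizontal axis, kb). Each line joins the summits of 1 list, blue for fresh and red for cultured: in the right panel the highest summit lies 64.62 kb downstream in fresh lists and 65.28 kb downstream in cultured ones.

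Other core elements varied in shape. At 53.5 kb downstream the main summit, 53.61 kb from the start, was in all 10 lists, and another at 53.31 kb was in 7 fresh lists (3.71 to 5.47) and in no cultured one. At 59.7 kb downstream a summit 59.59 kb from the start was listed for homeostasis (5.61), 1 week (7.82) and the second wound (8.17) only. It was the highest of the element at 1 week after either wound, whereas 59.73 kb was the highest in the other 8 lists.

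Outside the core, some elements were listed in cultured or in fresh cells alone. Both cultured lists and no fresh list held 4 of the 28 (14.3% against 7.75% of all elements): 46.2 kb upstream (chr6:94746039-94746661; 4.46 and 3.75 in the control and distal lists), 43 kb upstream (chr6:94742974-94743317; 7.57 and 8.44), 46.4 kb downstream (chr6:94653233-94654211; 6.31 and 5.27) and 73.2 kb downstream (chr6:94626585-94627259; 6.03 and 8.04). Another, 29.8 kb downstream (chr6:94670089-94670531), was 7.94 and 10.8 in the cultured lists and 4.82 with vehicle, the 1 fresh list that held it. The reverse class, at least 4 fresh lists and no cultured list, held 6 elements, 21.4% of the window against 20.7% of all elements. The fresh share is thus near that of all elements. With lists of equal length the window held 19 elements, and each class 1 of them (5.26%), below its background of 11.4% for culture and 19% for fresh cells. For culture it was the element 29.8 kb downstream, which vehicle no longer held, and none of the 4 above stayed in the class. For fresh cells it was that 116 kb downstream.

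All 6 elements of the fresh class lay downstream of the start, as did most of the window. It held 14 elements within the Lrig1 span and 5 within the Slc25a26 span, against 8 upstream. Inside Lrig1 they were 11.1 kb downstream (7.13 to 10.1 in the second-wound, vehicle, PRT4165, UVB and wound-with-UVB lists), 18.9 kb downstream (4.3 to 5.43 in 4 lists) and 52.4 kb downstream (5.92 to 9.07 in 6 lists). In the span of Slc25a26 they were 102 kb (5.29 to 7.81, 4 lists), 108 kb (6.39 to 11.2, 5 lists) and 116 kb (7.88 to 10.6, 6 lists) downstream. All 5 elements of the Slc25a26 span were absent from both cultured lists, as were 44.5% of all elements, and those 101 and 137 kb downstream were in 1 fresh list alone. The grid of signal values gives each of the 28 elements in each list.

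**Figure D4:**
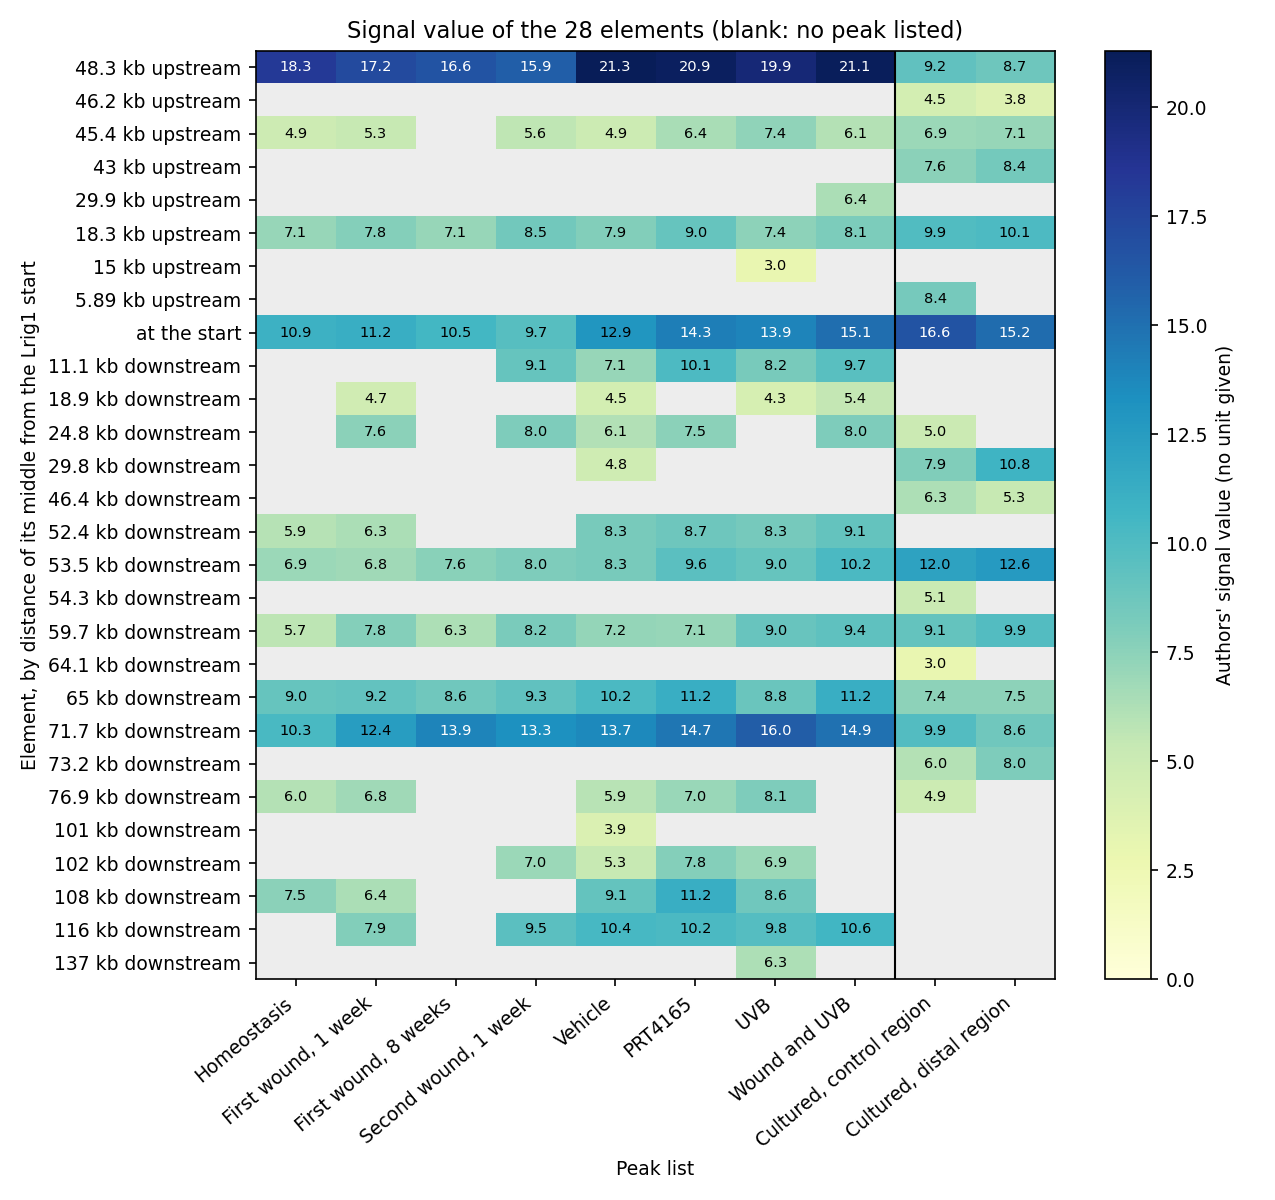
The authors' signal value (colour and printed number, no unit given) of each of the 28 elements (vertical axis, by distance from the Lrig1 start) in each of the 10 lists (horizontal axis); grey is no peak listed and the line parts fresh from cultured lists. The element 48.3 kb upstream has the darkest cell in the 8 fresh lists, and the start element in the 2 cultured ones.

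The core is by definition present in every list, so the wound lists could differ from homeostasis in the presence of elements only outside it. One week after the first wound, 3 regions were gained over homeostasis and 0 lost, with 11 shared. Those gained lay 18.9 kb (signal value 4.67), 24.8 kb (7.57) and 116 kb (7.88) downstream. Over the whole lists, 33.1% of regions were gained and 6.04% lost, since the 1-week list is longer. The direction did not hold at equal length, where 2 were gained and 5 lost (background 23.4 and 22.5%).

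At 8 weeks after the first wound the locus held the 7 core elements and nothing else. Against homeostasis 0 regions were gained and 4 lost, while 17.9% of regions were gained and 19.1% lost over the lists, which are of nearly equal length. The 4 lost elements had homeostasis signal values of 4.87 (45.4 kb upstream), 5.92 (52.4 kb downstream), 6.02 (76.9 kb downstream) and 7.54 (108 kb downstream). Equal length gave the same counts, 0 and 4 (background 18.4% each). It shortens the homeostasis list only from 35195 to 34644 regions and leaves the 8-week list whole, so it is no separate check. With the strongest 50% of each list, 0 were gained and 1 lost. The 4 lost regions were among the weaker ones. Of the 7 homeostasis regions of the window with a signal value of 7.54 or less, 4 were lost, against 38.9% of such regions over the whole list. This limit is the value of the strongest lost region of the window, so all 4 lost regions fall under it by construction. The comparison therefore cannot show an excess of loss at this locus.

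The element 45.4 kb upstream, next to the strong one at 48.3 kb, was absent from the 8-week list alone. The homeostasis list had it at 4.87, the 1-week lists of the first and second wound at 5.32 and 5.61, vehicle at 4.94 and PRT4165 at 6.44. UVB gave 7.38, wound plus UVB 6.06, and cultured control and distal cells 6.94 and 7.09. The cultured lists, also labelled 8 weeks after a first wound, thus did hold it.

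From 1 to 8 weeks after the first wound, 7 regions were lost and 0 gained (33.7 and 5.5% over all regions); at equal length it was 2 and 1 (23.2 and 22.3%). This comparison shares its 8-week list with the one against homeostasis. One week after the second wound, against 1 week after the first, 2 regions were gained (9.85%) and 4 lost (23.1%). The gained elements were 11.1 kb (9.05) and 102 kb (6.97) downstream. Lost were those 18.9 kb, 52.4 kb, 76.9 kb and 108 kb downstream, with first-wound values of 4.67, 6.33, 6.76 and 6.39. At equal length the balance turned to 3 gained and 0 lost (16.4 and 16.8%).

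The elements 24.8 kb and 116 kb downstream were thus listed 1 week after each wound and neither in homeostasis nor at 8 weeks. They were 7.57 and 8.04 (24.8 kb) and 7.88 and 9.49 (116 kb) after the first and second wound. Both were also present without a wound named, at 6.11 and 10.4 with vehicle, so their presence was not restricted to wounded skin.

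PRT4165 against vehicle gave 0 gained regions (11.4%) and 3 lost (13.9%). The lost elements, 18.9 kb, 29.8 kb and 101 kb downstream, were among the weakest of the vehicle list at 4.46, 4.82 and 3.92. With lists of equal length 2 were gained and 0 lost (10.7 and 10.8%). The start element was 12.9 with vehicle and 14.3 with PRT4165 and that 48.3 kb upstream 21.3 and 20.9; the order of the 7 core elements was the same in both lists.

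Wound with UVB against UVB gave 2 gained regions (10%) and 5 lost (19.3%). Gained were elements 29.9 kb upstream (6.37, the 1 list that held it) and 24.8 kb downstream (8). Lost were elements 15 kb upstream (2.98 with UVB) and 76.9 kb (8.06), 102 kb (6.93), 108 kb (8.57) and 137 kb (6.32) downstream, so 3 of the 5 lay in the span of Slc25a26. At equal length 1 was gained and 0 lost (13.7 and 13.8%).

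In culture, distal memory cells against control cells gave 0 gained regions (7.6%) and 5 lost (22.2%), 13 being shared. The lost elements were 5.89 kb upstream (8.4 in the control list) and 24.8 kb (5.02), 54.3 kb (5.12), 64.1 kb (2.95) and 76.9 kb (4.92) downstream. At equal length the direction turned, with 4 gained and 1 lost (11.5% each). The order of the core was similar in the 2 lists: both placed the start first, that 53.5 kb downstream second (12 and 12.6) and that 65 kb downstream last (7.43 and 7.48). The elements 59.7 and 71.7 kb downstream traded places. They ranked 6 and 4 in the control list (9.12 and 9.89) and 4 and 6 in the distal list (9.9 and 8.61).

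Vehicle and homeostasis are both labelled 0 weeks and name no wound, and vehicle gained 7 regions and lost 0. Those gained lay 11.1, 18.9, 24.8, 29.8, 101, 102 and 116 kb downstream. The lists differ in length, 70008 against 35195 regions, and 50.6% of all vehicle regions were gained and 1.15% of homeostasis regions lost. At equal length vehicle had 1 gained and 6 lost (26.5 and 25.7%). None of the other 7 comparisons had a larger balance than these 7 regions. The plot of elements against list length sets each count beside the length of its list.

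**Figure D5:**
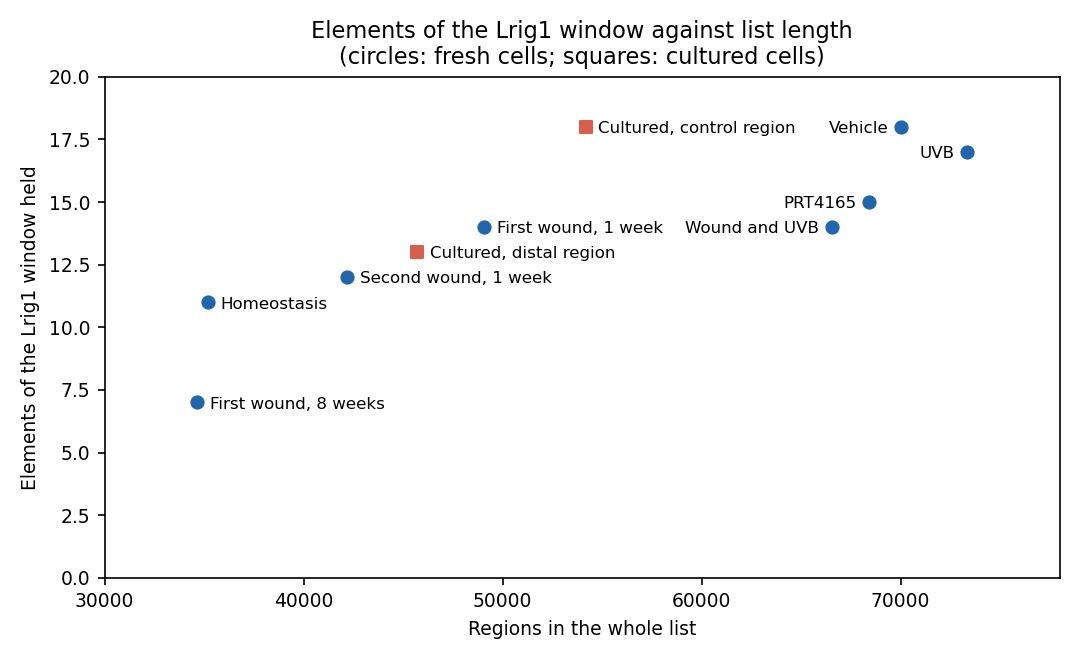
Number of elements of the Lrig1 window in a list (vertical axis) against the number of merged regions in the whole list (horizontal axis), 1 point per list, circles for fresh and squares for cultured cells. The 8-week list, with 7 elements, lies below homeostasis, with 11, at nearly the same length, and cultured control reaches 18 with fewer regions than vehicle, which also has 18.

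The other genes of the LRIG family and of receptor feedback, 16 besides Lrig1, were taken as a list: the paralogues Lrig2 and Lrig3, the receptors Egfr, Erbb2, Erbb3, Erbb4, Met, Ret and Pdgfra, and the feedback genes Errfi1, Cbl, Cblb, Spry1, Spry2, Spry4 and Socs5. Each had a region at most 1 kb from an end in all 10 lists except Erbb4 (3 lists) and Pdgfra (1 list). The share of all genes with such a region is not given here, so this is a description without a background. Egfr, the receptor that Lrig1 restrains, had 32 elements in its span and 50 kb beyond, 6 of them in all 10 lists. Erbb3, a kinase-impaired relative of Egfr, had 17, with 9 in all 10. The paralogues had fewer than Lrig1, 11 for Lrig2 (1 in all 10) and 15 for Lrig3 (3 in all 10).

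At 8 weeks against homeostasis, 8 of these 16 genes had more lost than gained regions, 5 more gained and 3 as many of each, with a median balance of −0.5 against 0 for all genes. Over all genes 26.2% had more lost and 20.7% more gained. The shares over all genes here and below were not matched for the number of elements in a window. A window with more elements has more room for a gain or a loss. Errfi1, whose product inhibits Egfr, had 1 gained and 5 lost, Cblb, a ubiquitin ligase of receptors, 1 and 3, and Cbl, a related ligase, 3 and 0. Lrig2 had 2 gained and 0 lost, the opposite sign to Lrig1. At 1 week against homeostasis 12 had more gained and 0 more lost (55.5 and 3.85% of all genes).

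Between fresh and cultured lists, 15 of the 16 had an element of at least 4 fresh lists and no cultured one, against 59.6% of all genes, and 6 had one of both cultured lists and no fresh one, against 34.5%. The windows of the 16 held from 5 (Pdgfra) to 32 (Egfr) elements. A window with more elements is more likely to hold 1 of any class, so these shares are not like for like. Cblb had 8 and 6 such elements, Met, the receptor of hepatocyte growth factor, 7 and 4, Egfr 5 and 2, and Lrig3 6 and 0. Lrig1 had 6 and 4.

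Over the 10 lists, the genes whose number of elements per 10000 regions ran most like that of Lrig1 were Cd2bp2 (Pearson r = 0.976), Tbc1d10b (0.952), Usp12 (0.912), Pkp1 (0.908) and Pex11g (0.906), among 12160 genes with at least 8 elements, whose median r was 0.070. Cd2bp2 and Tbc1d10b are neighbours on chromosome 7 and share elements. The points share the length and depth of their lists, and small counts enter, such as 3 to 8 elements for Cd2bp2. Pkp1, a desmosomal plakophilin of keratinocytes, had 14 to 30.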

How the data were processed

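ATAC-seq libraries from 10 groups of 2 were analysed through 10 deposited peak lists, 1 per group, made by the authors from both libraries. Per the submitters' processing notes, positions refer to mm10. For the aligner, peak caller, filters, any Tn5 shift and the read depth: not given in the sources used here. Each list gives the authors' score (540 or higher), their signal value, which was used to order regions within a list, and the deposited −log10 p (2.00 or higher). The deposited summit offset (another value, in bp) gave positions. As the names of the lists tell, peaks had passed a reproducibility threshold between replicates. No list holds values per library, so no test and no replicate error were possible. Where nothing says so, the 2 libraries of a group need not come from separate animals. No column was left unmapped.

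Overlapping peaks were merged into regions, and regions of the 10 lists into elements, at 1 bp or more; the strongest peak gave the signal value. A region without overlap in the other list was gained or lost. The percentage beside each count is the same share over all regions, elements or genes. The elements named were that at the start, those of all lists, of 1 list or changed in a comparison, and the strongest of each list. Genes named were the family list and the 5 most like Lrig1. The members, lists and motifs were chosen with earlier results of these data known, and the cultured against fresh summaries, the places among shared elements and the share of weak regions lost were chosen after the values were seen. Genes are those of RefSeq for GRCm38.p6, and all 17 family members were found. Overlap counting was tested on the homeostasis list with known regions removed and random ones added, and merging on a small made-up table. For 1 count, bedtools gave the same number (6195 regions). Python 3.11.15, numpy 2.4.6, pandas 2.3.3 and matplotlib 3.10.9 were used.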

Additional observations from a re-analysis of the deposited data

How the results depend on the processing

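No paired analysis was possible because each group has 1 list made from both libraries, and leaving out a replicate could not be run for the same reason. Of 84 alternative values, 48 stayed close to those reported, 28 moved and 8 turned direction. A count within 1.5 times the one reported was taken as close. A window of 20 kb beyond each end left 21 elements, 6 of them in all lists, and a balance of −5 from 1 to 8 weeks; it leaves out the element 48.3 kb upstream. An overlap of 50% of both regions left 5 elements in all lists and 1 gained and 8 lost from 1 to 8 weeks. The summit nearest the start gave the same start values, and ordering by −log10 p the same strongest elements. Limiting each list to its strongest 50% left 11 elements in the window, 1 in all lists (the start), and per list 4 (homeostasis), 4 and 3 (1 and 8 weeks of the first wound), 4 (second wound), 6 (vehicle), 8 (PRT4165), 3 (UVB), 4 (wound plus UVB), 6 (cultured control) and 5 (cultured distal). Gained minus lost was then 0 for 1 week against homeostasis, −1 for 8 weeks against homeostasis, −1 for 8 weeks against 1 week, 0 for the second against the first wound, 2 for PRT4165, 1 for wound with UVB, −1 for distal cells and 2 for vehicle against homeostasis, so PRT4165 and wound with UVB turned from −3. Lists of equal length (34644 regions) left 3 elements in all lists, and per list 8 (1 week), 6 (vehicle), 8 (PRT4165), 3 (UVB), 4 (wound plus UVB) and 8 (cultured control). Gained minus lost turned to −3 for 1 week against homeostasis, 3 for the second wound, 2 for PRT4165, 1 for wound with UVB, 3 for distal cells and −5 for vehicle, and was −1 for 8 weeks against 1 week. The classes of cultured and of fresh elements had 1 element each there, and the cultured one was none of the 4 reported. The 8-week loss against homeostasis kept its −4 at equal length. That setting leaves the 8-week list whole and cuts homeostasis only from 35195 regions, so it is no separate check. List length, not read depth, is the only measure of sensitivity the lists give.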

Other observations

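From the window up to and including the near end of Kbtbd8 there were 32 further elements. Of these, 6 were in all 10 lists (18.8% of all elements), 0 in both cultured lists alone (7.75%), 7 in at least 4 fresh lists and no cultured one (20.7%), and 4 in 1 list (17.1%). The 6 include chr6:95117522-95118516, which overlaps the near end of the Kbtbd8 span. Homeostasis held 12, 8 weeks 10, UVB 24, wound with UVB 25, cultured control 13 and cultured distal 10. The elements 146 kb (chr6:94845599-94846662) and 385 kb (chr6:95085011-95085860) upstream of the Lrig1 start were in all 8 fresh lists, at signal values of 9.01 to 14.2 and 8.34 to 17, and in no cultured list. Within the window no element had that pattern.

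At the edges of the window, the nearest elements inside were 48.3 kb upstream and 137 kb downstream of the start, and the nearest outside were 54.5 kb upstream (6 lists) and 146 kb downstream (chr6:94553676-94554575). The latter, in the span of Slc25a26, was in all 8 fresh lists and in neither cultured list.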
